A study of Homo sapiens with 7 samples.

Results

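miR-320a and miR-484 are microRNAs whose precursors are known to bypass Drosha, the nuclease that releases most miRNA hairpins from longer transcripts, and miR-320b, miR-320c and miR-320d are grouped with them as the relatives of miR-320a. The members were the 5 entries named miR-320a-3p, miR-320b, miR-320c, miR-320d and miR-484, of 2652 mature miRNAs counted in 7 small RNA libraries. They were chosen by name and by no filter on their values, though with earlier results of these data known. All 5 passed the filter on low counts, a mean of at least 10 reads over the libraries, as did 458 miRNAs in all.

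The libraries came from HepG2, an established hepatocellular carcinoma cell line, in a study of miRNAs regulated by TEAD1, a DNA-binding factor of the Hippo pathway. A single library was of untreated cells (genotype WT, 0 h), and 6 were labelled TEAD1 knockdown and had received siRNA 1 or siRNA 2 for 24, 36 or 48 h. With 1 library per siRNA and time, the 2 libraries of a time carry different siRNAs, and the labels name neither a control siRNA nor separate cultures. Transfection, culture time and TEAD1 loss therefore cannot be told apart, p-values cover only the spread among these libraries, and small RNA libraries hold no TEAD1 mRNA with which to check the knockdown.

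Between 1920832 and 6171851 reads per library were assigned to a miRNA. Levels are given as CPM, read counts relative to the library size scaled by TMM, edgeR's correction for composition. The assigned reads were 43.1% of all reads in the untreated library and 13.4% to 26.5% in the siRNA-treated ones. Of the 4 hepatocyte markers, miR-192-5p (1710 to 3066 CPM) and miR-148a-3p (13928 to 25536 CPM) were high in all 7 libraries. miR-194-5p was at 68.6 to 136 CPM, while miR-122-5p, the main hepatocyte miRNA, was at 3.76 to 47.6 CPM. Of the markers of other cell types, miR-124-3p of neurons and miR-223-3p of blood had no read in any library. The 3 muscle markers summed to 21.0 to 52.8 CPM in 6 libraries and to 876 CPM with siRNA 1 at 36 h. In that library miR-1-3p alone was at 867 CPM. The 4 blood markers summed to 13.8 to 76.4 CPM and the 3 neuron markers to 34.3 to 51.5 CPM. The 4 markers of fibroblasts and endothelium summed to 457 CPM untreated and 438 to 503 CPM at 24 h. With siRNA 1 and siRNA 2 they summed to 1054 and 1062 CPM at 36 h and 835 and 834 CPM at 48 h. Of these, miR-143-3p was at 159 CPM untreated, 746 and 708 CPM at 36 h and 447 and 387 CPM at 48 h. miR-126-3p was at 294 CPM untreated, 300 and 337 CPM at 36 h and 374 and 437 CPM at 48 h. miR-145-5p and miR-199a-3p reached at most 10.3 and 6.60 CPM.

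In the canonical route Drosha cuts the hairpin out of a primary transcript, exportin-5 carries it to the cytoplasm, and Dicer removes the loop. The precursors of miR-320a and miR-484 are instead known to begin at the transcription start itself. They carry the cap of the transcript, leave the nucleus through exportin-1 and need only Dicer. For miR-320b, miR-320c and miR-320d the shared route is inferred from the family and was not tested here. miR-320a is known for restraining glycolysis through phosphofructokinase, and miR-484 for targeting FIS1, a mitochondrial fission factor.

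The mature sequences show how closely the family entries resemble each other and that miR-484 is unrelated to them. Of the 5 members 4 were matched in the RefSeq table used here (GRCh38.p14), and these sequences were identical to those in the deposited files. They are shown with the seed, bases 2 to 8 counted from the 5′ end, in capitals. The related entry miR-320e is shown beside them because its seed is shifted by 1 base and so differs from that of the others.
hsa-miR-320b: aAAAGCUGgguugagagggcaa
hsa-miR-320c: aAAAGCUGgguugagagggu
hsa-miR-320d: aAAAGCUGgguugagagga
hsa-miR-320e: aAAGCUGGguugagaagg
hsa-miR-484: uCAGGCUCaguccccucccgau

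miR-320b and miR-320c share their first 19 bases, and miR-320d shares its first 18 with both. A read ending within that stretch fits several entries, and how the counter placed such reads is not given in the sources used here. The line for reads with no unique alignment is 0 in every file, although miR-320b, miR-320c and miR-320d each have 2 loci. miR-320a-3p was left out of this comparison of bases, so how far its reads fit the other entries was not examined. The split of reads between the family entries, miR-320a-3p included, is therefore uncertain, and the summed family is the safer quantity. Over all 2652 entries the miR-320 seed was carried by 5: the 4 family members and miR-4429, which had 0 to 6 reads per library. The miR-484 seed was carried by miR-484, by miR-3155a with 0 to 3 reads and by miR-3155b with no read. The measured level of each seed thus came almost wholly from the members.

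A hairpin shows where the mature strand lies in the precursor. In MIR320B1 of RefSeq the mature strand, in capitals, is on the 3′ arm (bases 42 to 63 of 72). In MIR484 it is on the 5′ arm, close to the start of the hairpin (bases 8 to 29 of 79).
MIR320B1: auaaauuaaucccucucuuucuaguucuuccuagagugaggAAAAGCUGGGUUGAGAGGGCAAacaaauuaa

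On GRCh38.p14, miR-484 lies at chromosome 16, 15643301 to 15643322, within an exon of the protein-coding gene NDE1 on the same strand in GENCODE release 29. For miR-320b both loci are on chromosome 1. MIR320B1 spans 116671787 to 116671808 and overlaps no other gene, and MIR320B2 spans 224257049 to 224257070, inside an NVL intron and on the strand of NVL. Both loci of miR-320c lie on chromosome 18, antisense to introns: 21683559 to 21683578 in ABHD3 and 24321716 to 24321735 in OSBPL1A. The loci of miR-320d lie between genes, at chromosome 13, 40727828 to 40727846, and at chromosome X, 140926172 to 140926190. The multiple loci cannot be told apart in these counts.

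miR-320a-3p supplied nearly all of the family's reads. Its level was 2828 CPM untreated. At 24, 36 and 48 h it was 2490, 2347 and 2354 CPM with siRNA 1, whereas siRNA 2 gave 2367, 2310 and 2153 CPM. All 6 siRNA-treated libraries lay below the untreated one, and they lay close together, at 2337 ± 109 CPM (SD, n = 6). Over all tested miRNAs 13.5% lay below untreated in all 6 libraries, so this position is shared by many. The 95% exact Clopper-Pearson interval of the untreated value, 2783 to 2873 CPM, did not reach any of the siRNA-treated values or their intervals. Such intervals cover counting error only and no spread between libraries, and the files carry no molecular identifiers. The sum over the 4 family members is free of the split between them only if each shared read was counted once within the 4. Whether that was so is not known. The summed level was 3012 CPM untreated. After siRNA it was 2548 ± 107 CPM (SD, n = 6), with a range of 2362 to 2694 CPM. With total miRNA counts as the scale the sum was 2617 CPM untreated. It was then 2436, 2611 and 2765 CPM with siRNA 1 at 24, 36 and 48 h, and 2199, 2988 and 2700 CPM with siRNA 2. On that scale miR-320a-3p too lay on both sides of its untreated value. With all reads as the scale the sum was 1129 CPM untreated and 351 to 647 CPM after siRNA. In bulk libraries like these, fewer cells that make a miRNA and less of it per cell cannot be told apart.

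The other family members were far lower. miR-320b stood at 127 CPM untreated, at 130, 134 and 121 CPM with siRNA 1 at 24, 36 and 48 h, and at 143, 153 and 134 CPM with siRNA 2. The siRNA-treated values lay on both sides of the untreated one, 5 above and 1 below. miR-320c stood at 41.4 CPM untreated, at 51.7, 44.6 and 43.7 CPM with siRNA 1 and at 49.4, 62.7 and 55.9 CPM with siRNA 2. All 6 lay above untreated, as did 10.3% of all tested miRNAs. The interval of the untreated value, 36.1 to 47.2 CPM, overlapped those of siRNA 1 at all times and of siRNA 2 at 24 h and, narrowly, at 48 h.

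miR-320d was the least abundant, with 28 to 87 reads per library. It stood at 16.2 CPM untreated, at 21.9, 14.2 and 35.4 CPM with siRNA 1 and at 25.5, 27.7 and 19.6 CPM with siRNA 2. It was highest with siRNA 1 at 48 h and lowest with siRNA 1 at 36 h, and no order of times held for both siRNAs.

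miR-484 varied more between the libraries than the abundant family members did. It stood at 188 CPM untreated, at 173, 177 and 227 CPM with siRNA 1 at 24, 36 and 48 h, and at 129, 257 and 314 CPM with siRNA 2. Both 24 h libraries lay below untreated and both 48 h libraries above it, and the 36 h libraries fell on either side. Of all tested miRNAs, 36.5% lay below untreated in both 24 h libraries and 41.9% above it in both 48 h libraries. At 24 h the interval with siRNA 1, 159 to 187 CPM, overlapped that of the untreated library, 177 to 200 CPM, while that with siRNA 2, 115 to 145 CPM, lay below it. At 48 h the intervals with siRNA 1 (208 to 247 CPM) and siRNA 2 (292 to 338 CPM) both lay above it.

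**Figure D1:**
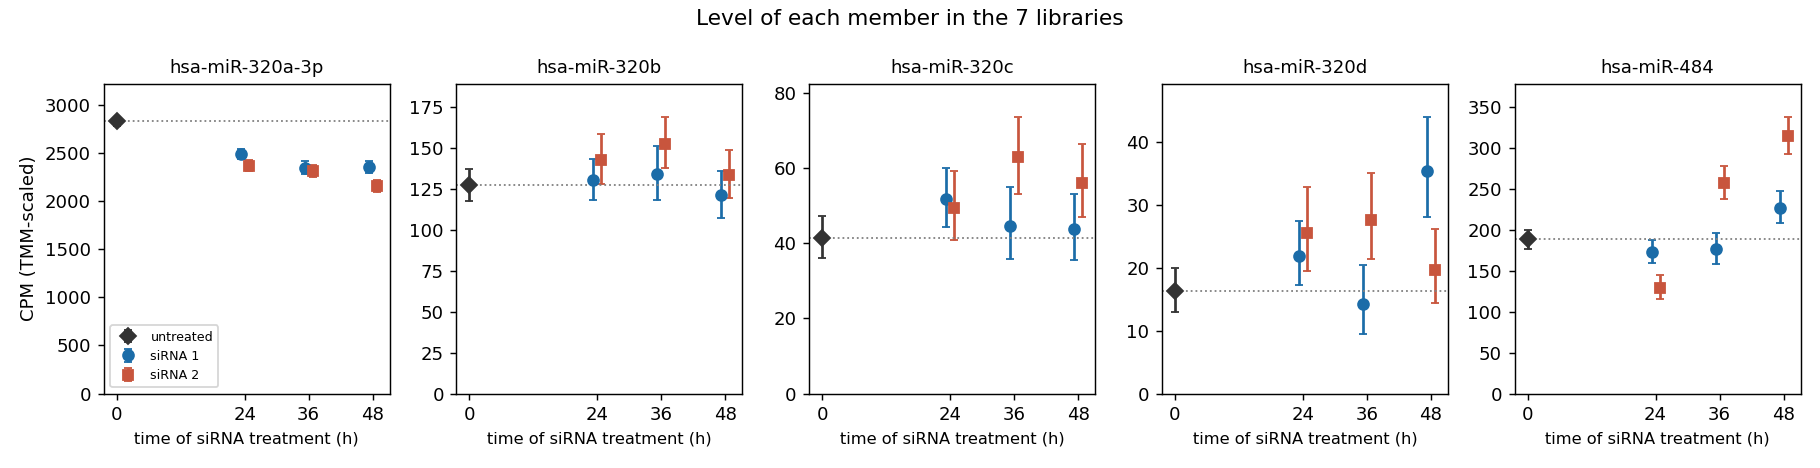
Level of each member in CPM on the TMM scale against time of siRNA treatment in hours, 1 panel per miRNA, with a point per library and bars for the 95% exact Clopper-Pearson interval (counting error only). The dotted line is the untreated level; miR-320a-3p lies below it in all 6 siRNA-treated libraries, and miR-484 runs from 129 to 314 CPM.

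By untreated level the order was miR-320a-3p, miR-484, miR-320b, miR-320c and miR-320d, and the untreated intervals of neighbours in that order did not overlap. The order held in 6 of 7 libraries. With siRNA 2 at 24 h miR-320b (143 CPM) stood above miR-484 (129 CPM), with overlapping intervals of 128 to 159 and 115 to 145 CPM. By rank within a library, miR-320a-3p was 40th to 44th, miR-484 103rd to 141st and miR-320d 214th to 290th. Ligation efficiency differs between miRNAs and was not measured, so ranks compare reads and not molecules.

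The members differed in how much they varied. Over the 6 siRNA-treated libraries the SD of log2 level was 0.07 for miR-320a-3p, 0.11 for miR-320b, 0.20 for miR-320c, 0.44 for miR-320d and 0.46 for miR-484. Counting alone would give 0.02, 0.08, 0.13, 0.20 and 0.07. The median SD over the 458 tested miRNAs was 0.47. From the smallest, miR-320a-3p ranked 2nd of the 458 with TMM, 10th with total miRNA counts and 60th with all reads as the scale. Among the 42 miRNAs at least as abundant as miR-320a-3p, itself included, it ranked 2nd from the smallest with TMM and with total miRNA counts as the scale (SD 0.15), and 4th with all reads as the scale (SD 0.30). miR-484, in contrast, ranked 81st of the 123 miRNAs at least as abundant as itself.

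In the comparison of all times with untreated cells, none of the 5 members passed edgeR's quasi-likelihood test with Benjamini-Hochberg adjustment over all miRNAs, and 0 of 458 did (0%, with 23 or 5.02% at an unadjusted p under 0.05). DESeq2 called 1 miRNA, which was not a member. The log2 fold change was -0.28 ± 0.23 (SE) for miR-320a-3p, 0.09 ± 0.29 for miR-320b, 0.31 ± 0.36 for miR-320c, 0.56 ± 0.53 for miR-320d and 0.14 ± 0.37 for miR-484 (adjusted p from 0.899 to 0.934). Of the members, 4 lay above 0, against 46.3% of all tested miRNAs. Their median was 0.14 and that of all tested miRNAs -0.05.

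Single times gave no call either. edgeR called 0 members and 0% of all miRNAs at 24, 36 and 48 h, with 2.4%, 4.15% and 11.6% at an unadjusted p under 0.05. DESeq2 called 1, 7 and 12 miRNAs, none of them a member. Above 0 lay 3, 4 and 4 of the 5 members, against 44.5%, 47.8% and 48.3% of all tested miRNAs. miR-320a-3p stood at -0.22 ± 0.27 (SE), -0.28 ± 0.27 and -0.33 ± 0.27 at 24, 36 and 48 h. miR-320b stood at 0.10 ± 0.33, 0.17 ± 0.33 and 0.00 ± 0.33, and miR-320c at 0.29 ± 0.41, 0.38 ± 0.41 and 0.27 ± 0.41. These 3 comparisons share the single untreated library, so their values are not independent of each other. miR-320d stood at 0.54 ± 0.59, 0.37 ± 0.59 and 0.76 ± 0.60. miR-484 went from -0.32 ± 0.41 at 24 h through 0.21 ± 0.42 to 0.53 ± 0.42 at 48 h.

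The comparison of 48 h with 24 h does not use the untreated library, although the spread is pooled over all 3 times. miR-484 stood at 271 ± 61.9 CPM (SD, n = 2) at 48 h against 151 ± 30.7 CPM (SD, n = 2) at 24 h, and both 48 h libraries lay above both 24 h libraries. That order was seen in 28.2% of all tested miRNAs. Its log2 fold change of 0.84 ± 0.34 (SE) ranked 63rd of 458 and did not pass (edgeR adjusted p = 0.258, and 0.220 by DESeq2). edgeR called 0 miRNAs here (0%, with 84 or 18.3% at an unadjusted p under 0.05), and DESeq2 called 21, none of them a member. The family members were nearer 0: -0.11 ± 0.22 for miR-320a-3p, -0.10 ± 0.27 for miR-320b, -0.02 ± 0.33 for miR-320c and 0.22 ± 0.48 for miR-320d. Above 0 lay 2 of the 5 members, against 52% of all tested miRNAs. For miR-320a-3p both 48 h libraries lay below both 24 h libraries, an order seen in 33% of all tested miRNAs.

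The call for miR-484 depended on the 36 h libraries. Without both of them it rose from 24 h to 48 h by 0.83 ± 0.25 (SE, edgeR adjusted p = 0.00459), in a fit that called 28.7% of all miRNAs, 10.9% as higher. Without siRNA 1 at 36 h the change was 0.87 ± 0.25 (adjusted p = 0.0105, with 26.6% called, 10.2% as higher), and without siRNA 2 at 36 h 0.84 ± 0.25 (adjusted p = 0.00416, with 28.4% called, 11.3% as higher). The fold change hardly moved between these fits and the error did. Without both 36 h libraries edgeR also gave a smaller p-value for the same ratio of change to error. The fall in p is therefore not from the error alone. Leaving out a 36 h library takes the difference between the 36 h libraries out of the pooled spread, and the part of this in the calls was not tested. Over all alternatives the log2 fold change ran from 0.59 without siRNA 2 at 48 h to 1.18 ± 0.40 with total miRNA counts as the scale.

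**Figure D2:**
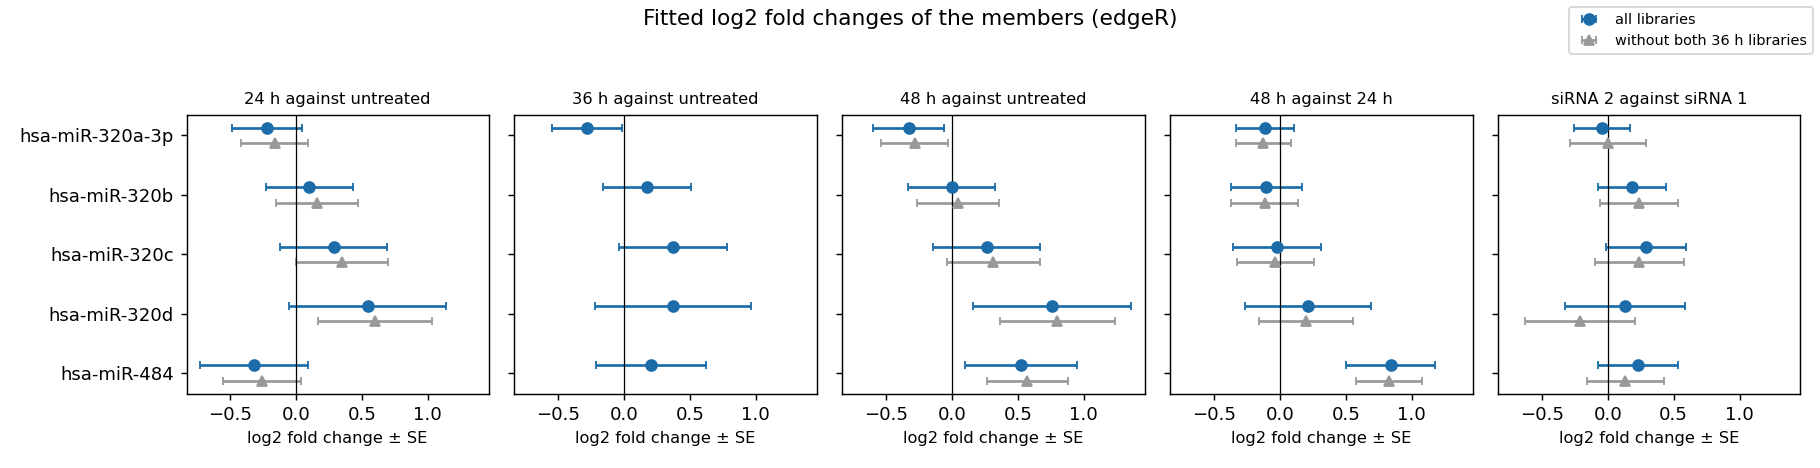
Fitted log2 fold changes (edgeR) of the 5 members in 5 comparisons, with bars for 1 SE, in the fit with all libraries (circles) and without both 36 h libraries (triangles; none for 36 h). The values of miR-320a-3p, miR-320b and miR-320c lie within 0.4 of 0, and miR-484 stands at 0.84 for 48 h against 24 h.

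siRNA 2 was compared with siRNA 1 in the 6 siRNA-treated libraries, with time as a factor. None of the 5 members and 0 of 435 miRNAs passed by edgeR (0%, with 6 or 1.38% at an unadjusted p under 0.05), and DESeq2 called 0. The log2 fold changes were -0.04 ± 0.21 (SE) for miR-320a-3p, 0.18 ± 0.26 for miR-320b, 0.29 ± 0.30 for miR-320c, 0.13 ± 0.45 for miR-320d and 0.23 ± 0.30 for miR-484 (adjusted p = 0.992 each). Above 0 lay 4 of the 5 members, against 46.9% of all tested miRNAs. miR-320b was the member whose level was higher with siRNA 2 than with siRNA 1 at all 3 times, as was that of 6.55% of all tested miRNAs.

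The make-up of the family was then read within each library, which needs no scaling between libraries. It does rest on the uncertain split of reads between the entries. miR-320a-3p made up 93.9% of the reads of the 4 family members in untreated cells (95% interval 93.5 to 94.2) and 91.7% ± 0.78 (SD, n = 6) after siRNA, with a range of 90.5% to 92.4%. The share of miR-320b was 4.22% untreated and 5.34% ± 0.48, that of miR-320c 1.37% and 2.02% ± 0.32, and that of miR-320d 0.54% and 0.94% ± 0.28. In 6 of 6 siRNA-treated libraries each of the minor members was higher relative to miR-320a-3p than in the untreated library. Of these 18 values 7 had a 95% interval that overlapped the untreated one: 2 of miR-320b, 2 of miR-320c and 3 of miR-320d. A level above untreated in all 6 libraries on this measure was seen for 26% of all tested miRNAs other than miR-320a-3p. That share includes the minor members themselves. A single untreated library against 6 cannot give an exact permutation p below 0.05, so no test is given.

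Per 100 reads of miR-320a-3p there were 4.50 reads of miR-320b in the untreated library. There were 5.24, 5.72 and 5.14 with siRNA 1 at 24, 36 and 48 h, and 6.03, 6.61 and 6.21 with siRNA 2. The siRNA 2 libraries all lay above the siRNA 1 libraries. On this measure that held for 1.53% of all tested miRNAs other than miR-320a-3p, miR-320b itself included. The difference of 0.92 reads per 100 had an exact two-sided permutation p of 0.1 (0.2 after Benjamini-Hochberg adjustment over 8 such measures). That p is the smallest that 3 libraries against 3 can give. The permutation took the 3 libraries of each siRNA as replicates and did not pair them by time. Its smallest p lies above the threshold used for the other tests, so it cannot decide whether the siRNAs differ. For miR-320c the values were 1.46 untreated, 2.08, 1.90 and 1.86 with siRNA 1 and 2.09, 2.72 and 2.60 with siRNA 2, with the same exact permutation p of 0.1 and adjusted value of 0.2. Its siRNA groups were separated only by 2.08 against 2.09 at 24 h, with overlapping intervals, and for its share of the 4 members the exact permutation p was 0.2 (adjusted 0.32). For miR-320d they were 0.57 untreated, 0.88, 0.60 and 1.5 with siRNA 1 and 1.08, 1.20 and 0.91 with siRNA 2 (exact permutation p = 0.8).

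miR-484 was at 6.65 reads per 100 of miR-320a-3p in the untreated library. It was at 6.94, 7.53 and 9.63 with siRNA 1 at 24, 36 and 48 h, and at 5.46, 11.1 and 14.6 with siRNA 2. The values were ordered by time within each siRNA, an order whose share over all miRNAs was not counted. Both 48 h values lay above both 24 h values, as for 35.2% of all tested miRNAs other than miR-320a-3p, miR-484 itself included. The 3 libraries with the highest ratios, siRNA 2 at 36 h and both at 48 h, also had the highest TMM factors, 1.08 to 1.17 against 0.85 to 1.03 in the other 4. The markers of fibroblasts and endothelium, whose rise at 36 h was mainly in miR-143-3p, summed to 834 to 1062 CPM in those 3 libraries. With siRNA 1 at 36 h, where the ratio was lower, they summed to 1054 CPM. The part of library composition in the ratio was not tested.

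**Figure D3:**
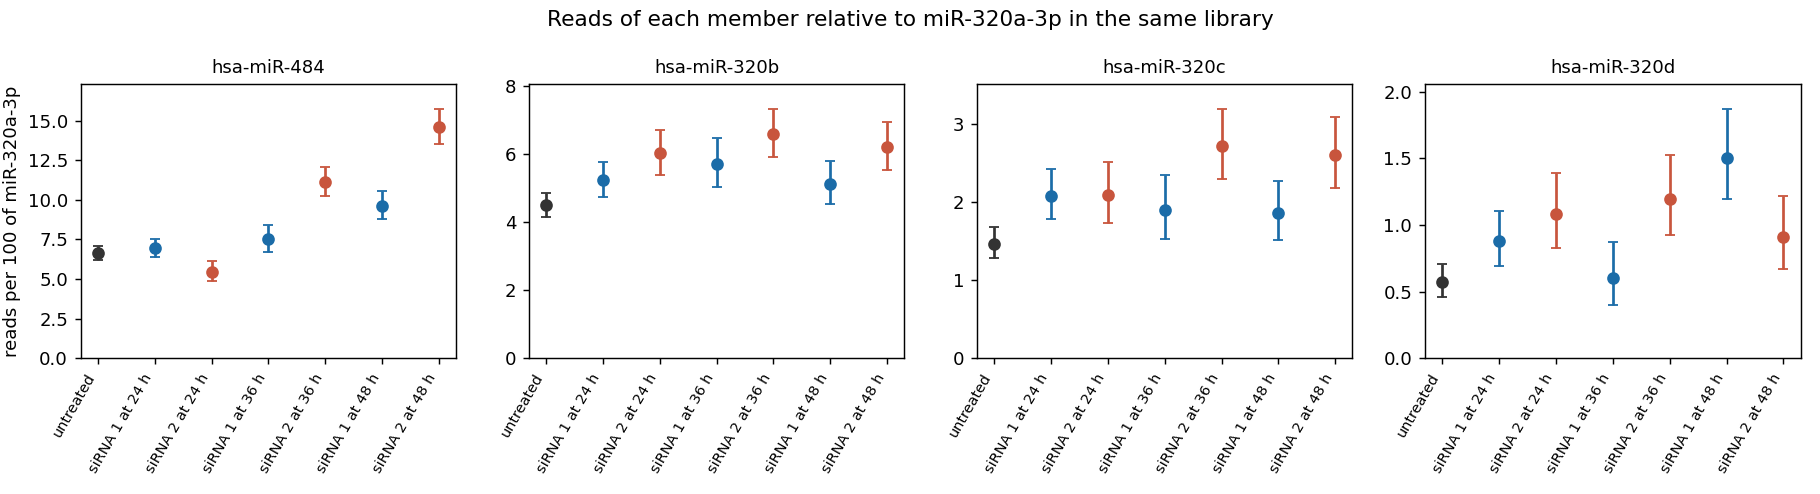
Reads of miR-484, miR-320b, miR-320c and miR-320d per 100 reads of miR-320a-3p in the same library, for the untreated library (black), siRNA 1 (blue) and siRNA 2 (red), with 95% exact Clopper-Pearson intervals. miR-484 runs from 5.46 to 14.6, and the 3 minor family members lie above their untreated ratio in all 6 siRNA-treated libraries.

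The sign of most members depended on the scale. With total miRNA counts the median log2 fold change of all miRNAs over all times moved from -0.05 to 0.19, and miR-320a-3p stood at -0.04 ± 0.29 (SE). At 36 h and 48 h miR-320a-3p then lay just above untreated, at 0.06 and 0.03. With all reads the median moved to -1.13, and all 5 members lay below 0: miR-320a-3p at -1.36 ± 0.51, miR-320b at -0.99, miR-320c at -0.76, miR-320d at -0.52 and miR-484 at -0.92. On that scale miR-320a-3p passed (edgeR adjusted p = 0.0437), as did 26.2% of all miRNAs, 25.5% as lower. A change of scale multiplies all miRNAs of a library by the same factor. Distances from the median of all miRNAs therefore hardly move by construction and are no check of the members. miR-320a-3p stood at -0.23 from the median with TMM, total counts and all reads alike, and miR-484 at 0.19, 0.19 and 0.21.

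**Figure D4:**
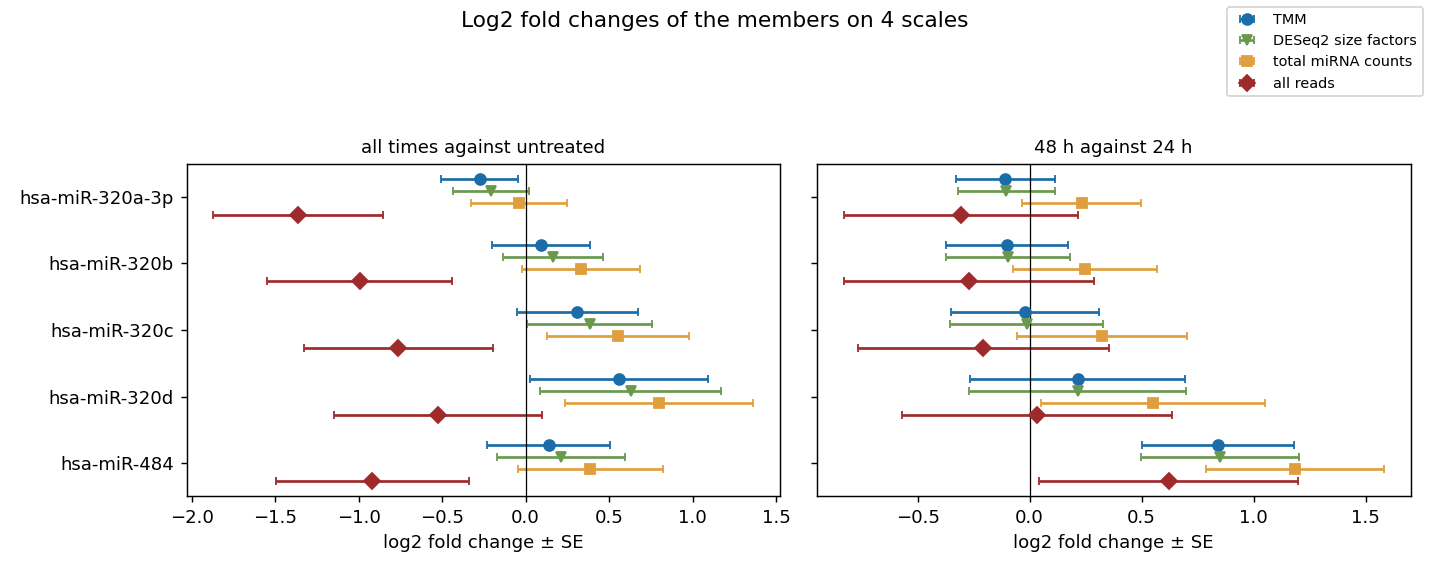
Log2 fold changes of the 5 members with bars for 1 SE on 4 scales: TMM, DESeq2 size factors, total miRNA counts and all reads of the library. Over all times against untreated the all-reads values lie between -1.36 and -0.52, while for 48 h against 24 h miR-484 lies above 0 on every scale, from 0.62 to 1.18.

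The remaining entries of the family had few reads. miR-320e had 22 reads untreated (4.10 CPM) and 8 to 20 reads after siRNA (2.96 to 8.37 CPM), with a log2 fold change of 0.54 ± 0.71 (SE) over all times (edgeR adjusted p = 0.899). miR-320a-5p, the opposite arm of miR-320a, had 0 reads untreated, a count that allows up to 0.560 CPM (3 reads), and 0 to 6 reads after siRNA. Its mature partner miR-320a-3p had 4635 to 15161 reads in the same libraries.

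Mirtrons are another Drosha-independent class, short introns that fold into hairpins once spliced. Of 23 listed mirtron entries 3 passed the filter on counts, and edgeR called 0 of them in any of the 6 comparisons. miR-877-5p stood at 41.6 CPM untreated and 28.8 to 48.5 CPM after siRNA (-0.18 ± 0.35, SE, over all times, edgeR adjusted p = 0.899), and miR-1226-3p at 28.0 and 22.8 to 41.8 CPM (0.12 ± 0.43, 0.934). The list's median was -0.18, with 1 above and 2 below 0, beside -0.05 for all miRNAs. The listed entries lying in structural RNAs differed more in value: 6 of 13 were tested, 5 above 0 with a median of 1.03 over all times, and edgeR called 0. Over all times miR-1246 stood at 3.38 ± 0.63 (SE), miR-12136 at 2.44 ± 0.89, miR-664a-3p at 0.51 ± 0.39 and miR-1260b at -0.29 ± 0.53 (edgeR adjusted p from 0.256 to 0.899).

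Likeness of pattern was measured as the root mean square difference of centred log2 levels over the 7 libraries, among miRNAs with a mean of at least 50 reads. The summed miR-320 members were most like miR-30a-3p (0.07), miR-106b-3p (0.08) and miR-183-5p (0.10), of 272 compared with a median of 0.36. These 3 are canonical miRNAs, and they were nearly level too, with miR-30a-3p at 7208 to 8218 CPM. miR-484 was most like miR-423-3p (0.16), miR-378a-5p (0.17) and miR-331-3p (0.17), of 275 with a median of 0.50. miR-423-3p stood at 5006 CPM untreated, at 4456, 5544 and 5970 CPM with siRNA 1 at 24, 36 and 48 h and at 3556, 6335 and 6687 CPM with siRNA 2. miR-484 differed from the summed family by 0.44, more than the median miRNA did. Within the family, miR-320b and miR-320c were closest (0.14), then miR-320a-3p and miR-320b (0.18), and miR-320d stood 0.40 to 0.46 from the others.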

How the data were processed

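Small RNA of 7 HepG2 libraries was counted per mature miRNA. The deposited values are raw read counts by the authors, from an NEB ligation-based small RNA kit per the labels' protocols. How reads were aligned and counted, on which build, and what became of reads that fit several entries is not given in the sources used here. The 5 summary lines of each file stayed out of library sizes and tests. They were used only in the scale by all reads, of which a library held 13134601 to 15591345.

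The members and lists, and the tests and alternatives, were chosen with earlier results of these data known. Groups came from the labels. edgeR 4.0.16 (R 4.3.3) fitted TMM-scaled counts of the miRNAs averaging at least 10 reads by its quasi-likelihood F-test, with Benjamini-Hochberg adjustment over all tested and a threshold of 0.05. Untreated and the 3 times entered 1 fit, which assumes for the single untreated library the spread of the treated ones. siRNA 2 against siRNA 1 used the 6 treated libraries with time as a factor. The SE is the log2 fold change over the root of F. CPM are counts relative to the TMM-scaled library size. Log2 levels used a prior count of 2, except that the SDs and the summed family had a small constant added to CPM. The log2 differences of miR-484 from untreated flagged below used CPM with nothing added. Intervals are 95% Clopper-Pearson, from R for levels and from scipy 1.17.1 for shares and ratios. A count of 0 allows up to 3 reads, 0.560 to 1.52 CPM. Besides the members, the miRNAs named are the other miR-320 entries, the 3 most like the summed family and miR-484, and from the mirtron, structural RNA and hepatocyte lists up to 4 of the most abundant with a mean of at least 50 reads. Other cell markers are given as sums. Those also named (miR-124-3p, miR-223-3p, miR-1-3p and the markers of fibroblasts and endothelium) were named after their values were seen. The scripts were tested on simulated counts. Alternatives were DESeq2 1.42.0, its size factors, total counts, all reads, other count filters, libraries left out and the siRNA number as a block.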

Additional observations from a re-analysis of the deposited data

Results flagged for a closer look

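miR-484 was singled out because its libraries moved in opposite directions at different times. Against the untreated library, the log2 level on the TMM scale was -0.12 with siRNA 1 and -0.54 with siRNA 2 at 24 h, and 0.27 and 0.74 at 48 h. The mean log2 level was thus 0.84 higher at 48 h than at 24 h. Both times are set against the same untreated library, and the opposite directions as such were not tested. Of all tested miRNAs, 36.5% lay below untreated in both 24 h libraries and 41.9% above it in both 48 h libraries. The share that did both was not counted. Both 48 h libraries lay above both 24 h libraries for 28.2%. The direct comparison of 48 h with 24 h did not pass with all libraries (edgeR adjusted p = 0.258).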

How the results depend on the processing

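Of the members' log2 fold changes under the alternatives, 375 kept their direction and their side of the threshold, 4 came to pass it (miR-320a-3p with all reads, and miR-484 at 48 h against 24 h without 36 h libraries) and 36 changed sign. With all reads as the scale the values over all times were -0.99 for miR-320b, -0.76 for miR-320c, -0.52 for miR-320d and -0.92 for miR-484. They were -0.84, -0.63 and -0.41 for miR-320b, miR-320c and miR-320d at 24 h, -1.03, -0.81, -0.79 and, for miR-484, -0.97 at 36 h, and -1.11, -0.84, -0.38 and -0.58 at 48 h. With total counts miR-320a-3p stood at 0.059 at 36 h and 0.028 at 48 h, and miR-320a-3p, miR-320b and miR-320c at 0.23, 0.25 and 0.32 at 48 h against 24 h. miR-320b at 48 h stood at -0.082 with no count filter and -5e-04 with the replicate block. Without both 36 h libraries siRNA 2 against siRNA 1 gave 5e-04 for miR-320a-3p and -0.21 for miR-320d. Apart from the scale, whose shift of all miRNAs is given above, the cause was not tested.

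Leaving out 1 library at a time gave -0.20 to 0.80 for miR-320d and -0.093 to 0.49 for miR-484 at 36 h, and -0.071 to 0.068 for miR-320b at 48 h. At 48 h against 24 h it gave -0.17 to 0.021 for miR-320b, -0.21 to 0.15 for miR-320c and -0.27 to 0.58 for miR-320d, and for siRNA 2 against siRNA 1 -0.26 to 0.63 for miR-320d. Values that kept their sign also moved: miR-484 from -0.54 to -0.13 at 24 h, from 0.27 to 0.74 at 48 h and from 0.071 to 0.56 for siRNA 2 against siRNA 1, and miR-320d from 0.27 to 1.124 at 48 h. Members past the threshold numbered 0 to 1 at 48 h against 24 h (miR-484), 1 there without both 36 h libraries, and 1 over all times with all reads (miR-320a-3p).

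The count of all miRNAs called by edgeR was 0 in each comparison. For siRNA 2 against siRNA 1 it was 0 under every alternative run, DESeq2 included, with 1 to 34 at an unadjusted p under 0.05. The other counts moved. Over all times, at 24 h, 36 h, 48 h and for 48 h against 24 h, it was 1, 1, 7, 12 and 21 by DESeq2, 120, 2, 49, 118 and 29 with all reads, and 12, 2, 10, 39 and 51 with no count filter. Without both 36 h libraries it was 50, 13, 117 and 134, with no value for 36 h. Leaving out 1 library at a time gave 0 to 65, 0 to 14, 0 to 91, 0 to 113 and 0 to 131.

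Libraries with the same number received the same siRNA, but the labels tie them to no shared culture or day, and they did not deviate together at all times. The differences between siRNA 2 and siRNA 1 correlated across miRNAs at 0.10 for 24 h and 36 h, -0.25 for 24 h and 48 h and -0.16 for 36 h and 48 h. With the siRNA number as a replicate block 0 miRNAs were called in each comparison with time, and miR-484 stood at 0.81 ± 0.38 (SE) at 48 h against 24 h (edgeR adjusted p = 0.305). Depth limits miR-320d most, with 28 reads in its lowest library.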
